A study of Mus musculus with 9 samples.

Results

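The horizontal cell markers described here are the 6 genes Lhx1, Onecut1, Onecut2, Onecut3, Calb1 and Prox1, taken by gene name from a table of 54532 genes in mouse retina. Bulk RNA-Seq was performed on the retinas of 9 wild-type C57BL/6 mice at P17, with 3 mice per group. Control mice were raised in room air (labelled Control with DMSO). OIR mice had oxygen-induced retinopathy, in which pups are kept in high oxygen and then returned to room air so that the retina becomes ischemic, and were injected with DMSO vehicle (labelled Hypoxia with DMSO). Treated OIR mice were injected in the eye at P12 with 32-134D, an inhibitor of the hypoxia-inducible factors (HIFs), and their label gives the dose as 70 ng. Mice are named here by group and by the animal number in their labels. All 6 genes passed the filter on low counts, which 17540 genes passed in all, and total counts per mouse ranged from 16028731 to 27213184.

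Horizontal cells are inhibitory interneurons whose cell bodies lie at the outer edge of the inner nuclear layer and whose processes meet the terminals of rods and cones. They feed back onto photoreceptors and are coupled to each other by gap junctions. During development, their fate is set by transcription factors that include Prox1, the Onecut family and Lhx1, and the adult cells of the mouse are rich in the calcium-binding protein calbindin, the product of Calb1. Among these genes, Lhx1 is the most restricted to horizontal cells in the adult retina, whereas Prox1 is also present in bipolar cells, AII amacrine cells and Müller glia, Calb1 in some amacrine and ganglion cells, and Onecut factors in ganglion cells. In bulk retina, fewer cells of a type and less RNA per cell cannot be told apart.

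Positions are given on GRCm38, since the deposited positions of 53462 of 54409 shared gene identifiers (98.3%) were identical in GENCODE M21. Lhx1 (ENSMUSG00000018698) lies on the minus strand of chromosome 11, from 84518284 to 84525535, and has no overlapping gene. Onecut1 (ENSMUSG00000043013) lies on the plus strand of chromosome 9, from 74861921 to 74891781, and overlaps Gm20649. Onecut3 (ENSMUSG00000045518) lies on the plus strand of chromosome 10, from 80494835 to 80517276, and overlaps 2610034O05Rik. Calb1 (ENSMUSG00000028222) lies on the plus strand of chromosome 4, from 15881264 to 15908064. Prox1 (ENSMUSG00000010175) lies on the minus strand of chromosome 1, from 190118035 to 190170714, and overlaps the antisense genes Prox1os and Gm28172. Onecut2 (ENSMUSG00000045991) is on chromosome 18, and its deposited position was the only one of the 6 that differed from GENCODE M21.

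The levels of the 6 genes spanned a wide range, and the calcium-binding protein and Prox1 were far above the other transcription factors. In control mice, mean levels per length were 27.9 RPKM ± 5.37 (SD, n = 3) for Calb1 and 17.0 RPKM ± 3.34 (SD, n = 3) for Prox1, and the ranges of these genes over mice did not overlap. Lhx1 followed at 2.33 RPKM ± 0.94 (SD, n = 3) and Onecut3 at 1.29 RPKM ± 0.32 (SD, n = 3), with ranges that overlapped, although Lhx1 was above Onecut3 in each of the 3 mice. Onecut2 at 0.54 RPKM ± 0.099 (SD, n = 3) and Onecut1 at 0.40 RPKM ± 0.079 (SD, n = 3) were lowest, and their ranges overlapped too. In OIR mice, Prox1 at 24.6 RPKM ± 1.98 (SD, n = 3) and Calb1 at 24.0 RPKM ± 3.18 (SD, n = 3) had overlapping ranges, and the same held in treated OIR mice, at 22.7 RPKM ± 3.22 (SD, n = 3) for Prox1 and 23.2 RPKM ± 2.23 (SD, n = 3) for Calb1. The order of the other 4 genes was the same in the means of all 3 groups, but not in each mouse. Lhx1 was above Onecut3 in 2 of 3 OIR mice. In treated OIR mice, Onecut3 was above Onecut2 in 2 of 3, and Onecut2 above Onecut1 in 2 of 3.

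In OIR compared with control mice, Prox1 and the 3 Onecut genes were higher in every OIR mouse than in every control mouse, Lhx1 overlapped between groups, and Calb1 had the only mean below control, so that 5 of 6 log2 fold changes were above 0, where 53.5% of all genes were. None of the 6 genes passed the test after adjustment. By edgeR's quasi-likelihood test with Benjamini-Hochberg adjustment over all genes, 0 of 6 had an adjusted p below 0.05, where 0.941% of all genes tested did. At an unadjusted p below 0.05, Prox1 and Onecut3 passed, 2 of 6, where 23.8% of all genes did. Every OIR mouse was above every control mouse for 4 of 6 genes, where 15.9% of all genes were, and below for 0 of 6, where 17.2% were. The median log2 fold change of the 6 genes was 0.60, and that of all genes tested was 0.03.

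**Figure D1:**
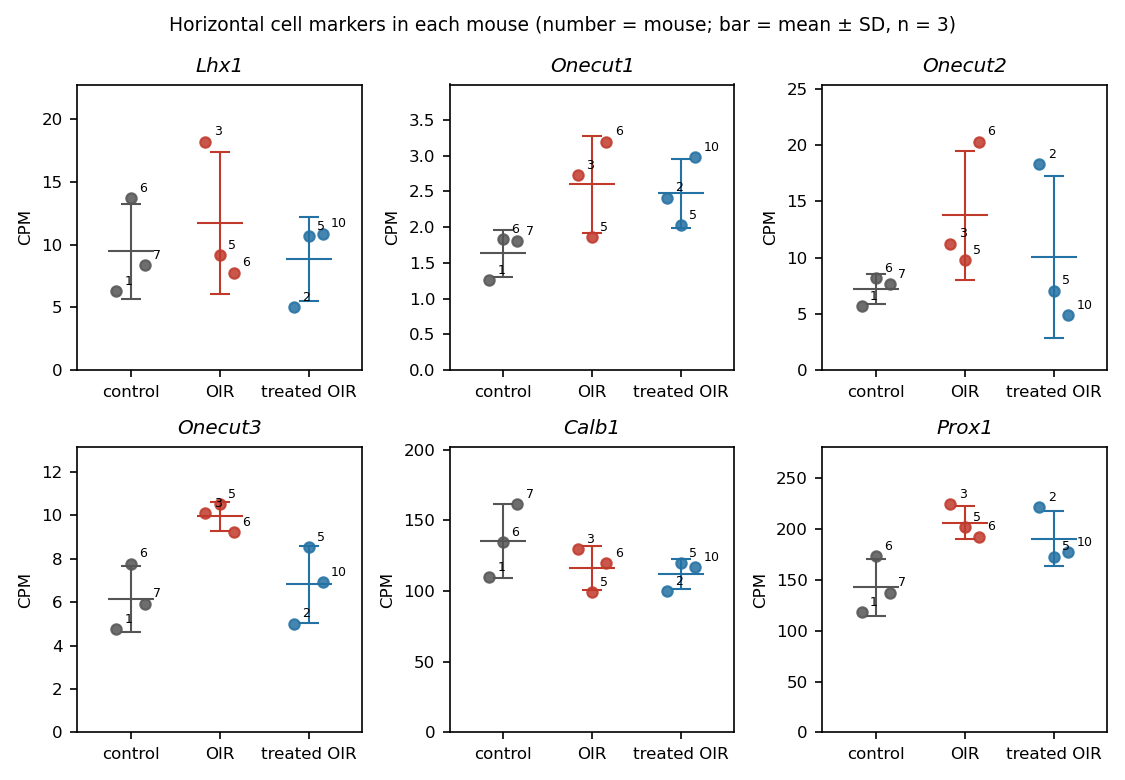
Normalised level (counts scaled by library size, CPM, linear axis from 0) of each horizontal cell marker in each of the 9 mice, with points numbered by mouse and bars for the mean ± SD of 3 mice per group. Onecut1, Onecut2, Onecut3 and Prox1 were higher in every OIR mouse than in every control mouse, and Onecut2 was highest in OIR mouse 6 and treated OIR mouse 2.

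Prox1 is a homeobox transcription factor needed for the formation of horizontal cells. Its levels in counts scaled by library size (CPM) were 118, 173 and 137 CPM in control mice 1, 6 and 7, and 225, 202 and 192 CPM in OIR mice 3, 5 and 6. The lowest OIR mouse was thus above the highest control mouse, control mouse 6. The log2 fold change was 0.53 (SE 0.16, 95% interval 0.17 to 0.89), a 1.44-fold difference, with an adjusted p of 0.103 by edgeR on 9 mice and 0.0443 by DESeq2 on the same mice, by which 11.6% of all genes were called. Without treated OIR mouse 2, which carried lens transcripts, edgeR gave a log2 fold change of 0.51 and an adjusted p of 0.0407 for OIR against control, and called 12.5% of all genes. DESeq2 without that mouse, a fit chosen after the data were seen, called Prox1, Onecut2 and Onecut3, 3 of 6, and 18.1% of all genes. Prox1 was called in 4 of 22 alternatives in OIR against control, over which its adjusted p ranged from 0.00559 to 0.255.

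Onecut3, the third gene of the Onecut family of cut-homeobox factors, had 4.75, 7.78 and 5.93 CPM in control mice 1, 6 and 7. In OIR mice 3, 5 and 6 it had 10.1, 10.5 and 9.22 CPM. The OIR mice lay close together and above all control mice, and their coefficient of variation of 6.72% was near the 6.96% given by counting error alone. This gave a log2 fold change of 0.70 (SE 0.25, 95% interval 0.12 to 1.27), and the adjusted p was 0.146.

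Onecut2 had 5.66, 8.17 and 7.67 CPM in control mice 1, 6 and 7, and 11.2, 9.74 and 20.3 CPM in OIR mice 3, 5 and 6. OIR mouse 6 was well above the other OIR mice, and the groups did not overlap. The log2 fold change was 0.94 (SE 0.48, 95% interval -0.13 to 2.02), with an adjusted p of 0.264, and it was 0.55 without OIR mouse 6. By DESeq2 on the 6 mice of these groups, the adjusted p was 0.0170 and 15.5% of all genes were called. Onecut2 was called in 2 of 22 alternatives in OIR against control, over which its adjusted p ranged from 0.0153 to 0.611.

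Onecut1, which acts upstream of Lhx1 in horizontal cell development, was the lowest of the 6 genes, at 28 to 37 counts per control mouse and 40 to 71 counts per OIR mouse. It had 1.26, 1.83 and 1.81 CPM in control mice 1, 6 and 7, and 2.73, 1.86 and 3.19 CPM in OIR mice 3, 5 and 6. OIR mouse 5 was just above the highest control mouse. Counting error alone gave a coefficient of variation of 17.2% in control mice, against 19.9% measured. OIR and control mice differed by a log2 fold change of 0.67 (SE 0.32, 95% interval -0.04 to 1.39), and the adjusted p was 0.237.

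Lhx1, a LIM-homeobox factor that places horizontal cells in their layer, had 6.32, 13.7 and 8.38 CPM in control mice 1, 6 and 7. It had 18.2, 9.18 and 7.78 CPM in OIR mice 3, 5 and 6, so that OIR mouse 3 was highest and the other OIR mice lay within the control range. Fitted over all 9 mice, the log2 fold change was 0.31 (SE 0.43, 95% interval -0.66 to 1.28), with an adjusted p of 0.703, and it was -0.15 without OIR mouse 3.

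Calb1, which encodes the calcium buffer calbindin, had 110, 135 and 162 CPM in control mice 1, 6 and 7, and 130, 99.4 and 120 CPM in OIR mice 3, 5 and 6. The groups overlapped. Its log2 fold change was -0.22 (SE 0.16, 95% interval -0.58 to 0.14), and the adjusted p was 0.433.

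The ratio of Prox1 to Calb1, per length, was chosen after the levels were seen and was not tested. It was 0.621, 0.742 and 0.491 in control mice 1, 6 and 7, whereas OIR mice 3, 5 and 6 had ratios of 1.001, 1.17 and 0.927. Values of 1.28, 0.831 and 0.876 were found in treated OIR mice 2, 5 and 10. Every OIR mouse and every treated OIR mouse was above the highest control mouse. Prox1 was higher and Calb1 lower in the OIR mean, and the pair was picked with these levels known, so the separation is only a description. Treated OIR mouse 2, which had the highest ratio, carried lens transcripts. Since both genes are read within a mouse, the ratio does not depend on library size.

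**Figure D2:**
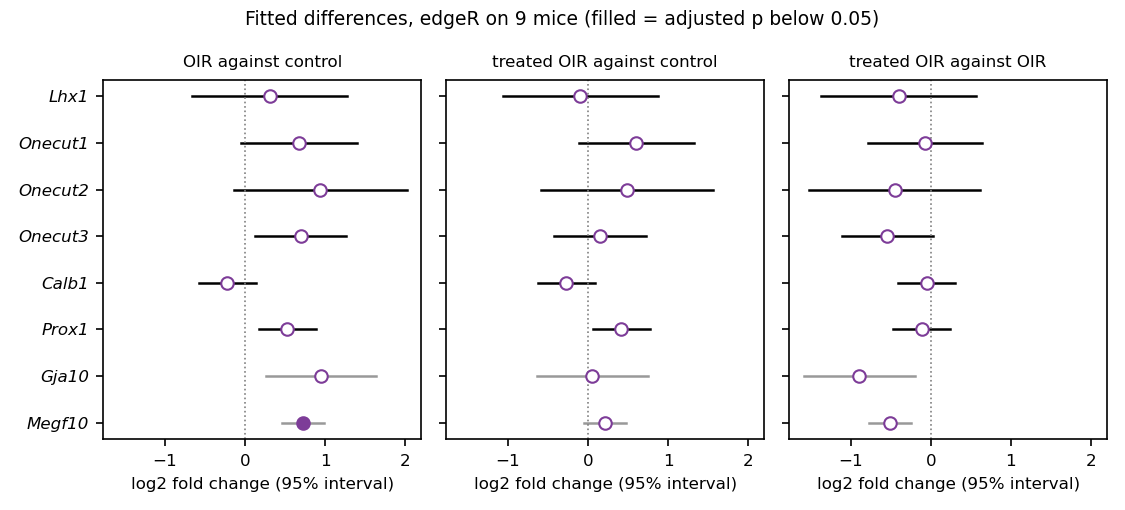
Log2 fold changes with 95% intervals from edgeR on 9 mice for the 6 horizontal cell markers (black) and the horizontal cell genes Gja10 and Megf10 (grey), in 3 panels for the 3 comparisons, with filled circles for an adjusted p below 0.05. Among these genes, the only filled circle is Megf10 in OIR against control, at 0.72, and the intervals of Prox1 and Onecut3 lie above 0 in that panel. Gja10 and Megf10 are the 2 of 8 genes of horizontal cell function that were above 0 in OIR against control. The other 6, not shown, were below 0.

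In treated OIR compared with control mice, which uses the same control mice, none of the 6 genes passed the test, and only Onecut1 was higher in every treated OIR mouse than in every control mouse. By edgeR, 0 of 6 had an adjusted p below 0.05, where 0.0228% of all genes did, and Prox1 alone had an unadjusted p below 0.05, where 18.6% of all genes did. The groups did not overlap, with treated mice above, for 1 of 6 genes and for 12.8% of all genes.

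Prox1 had 222, 173 and 177 CPM in treated OIR mice 2, 5 and 10, and mouse 5 lay just under control mouse 6. Its log2 fold change against control was 0.42 (SE 0.16, 95% interval 0.06 to 0.77), with an adjusted p of 0.223. Onecut1 had 2.41, 2.02 and 2.98 CPM in treated OIR mice 2, 5 and 10, all above the control mice, with a log2 fold change of 0.61 (SE 0.32) and an adjusted p of 0.338. Without mouse 2, the values were 0.30 for Prox1 and 0.64 for Onecut1.

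Onecut2 differed most among treated OIR mice, with 18.3 CPM in mouse 2, 7.05 CPM in mouse 5 and 4.88 CPM in mouse 10. Its coefficient of variation there was 71.4%, against 7.76% from counting error alone. Against control, the log2 fold change was 0.49 (SE 0.48), with an adjusted p of 0.599, and it was -0.25 without mouse 2.

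For the remaining genes, treated OIR mice overlapped with control mice. In treated OIR mice 2, 5 and 10, Lhx1 had 5.01, 10.7 and 10.9 CPM, Onecut3 had 5.01, 8.52 and 6.94 CPM, and Calb1 had 99.9, 120 and 117 CPM. For each of these genes mouse 2 was the lowest of the group. The log2 fold changes against control were -0.09 (SE 0.43) for Lhx1, 0.15 (SE 0.25) for Onecut3 and -0.27 (SE 0.16) for Calb1, with adjusted p-values of 0.927, 0.774 and 0.380 in that order. Without mouse 2, the values were 0.20 for Lhx1, 0.34 for Onecut3 and -0.18 for Calb1.

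In treated OIR compared with OIR mice, the comparison that addresses the inhibitor in ischemic retina, all 6 log2 fold changes were below 0, where 48.7% of all genes were, and none passed the test. They were -0.54 (SE 0.25) for Onecut3, -0.45 (SE 0.47) for Onecut2, -0.40 (SE 0.43) for Lhx1, -0.11 (SE 0.16) for Prox1, -0.07 (SE 0.31) for Onecut1 and -0.05 (SE 0.16) for Calb1. Without treated OIR mouse 2, edgeR gave -1.18 for Onecut2, -0.34 for Onecut3, -0.21 for Prox1, -0.095 for Lhx1, -0.024 for Onecut1 and 0.053 for Calb1, so that 5 of 6 were below 0. By edgeR, 0 of 6 genes had an adjusted p below 0.05, as did 0% of all genes tested. At an unadjusted p below 0.05 there were 0 of 6, where 4.69% of all genes were, and DESeq2 on 9 mice called 0 of 6 and 0.217% of all genes. The median of the 6 genes was -0.26 and that of all genes was 0.01. Onecut3 was the 1 gene of 6 for which every treated OIR mouse was below every OIR mouse, where 5.39% of all genes were, and its interval was -1.11 to 0.03. Leaving out treated OIR mouse 2, there were 3 of 6, namely Onecut2, Onecut3 and Prox1, where 17.1% of all genes were.

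The interval of the difference bounds how far apart the treated OIR and OIR groups could be. For Prox1 it was -0.47 to 0.24 and for Calb1 -0.41 to 0.31, whereas for Lhx1 it was -1.37 to 0.57 and for Onecut2 -1.52 to 0.61. By DESeq2 without treated OIR mouse 2, the log2 fold change of Onecut2 was -1.21 with an adjusted p of 0.0201, a fit chosen after the data were seen, in which 3.85% of all genes were called.

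**Figure D3:**
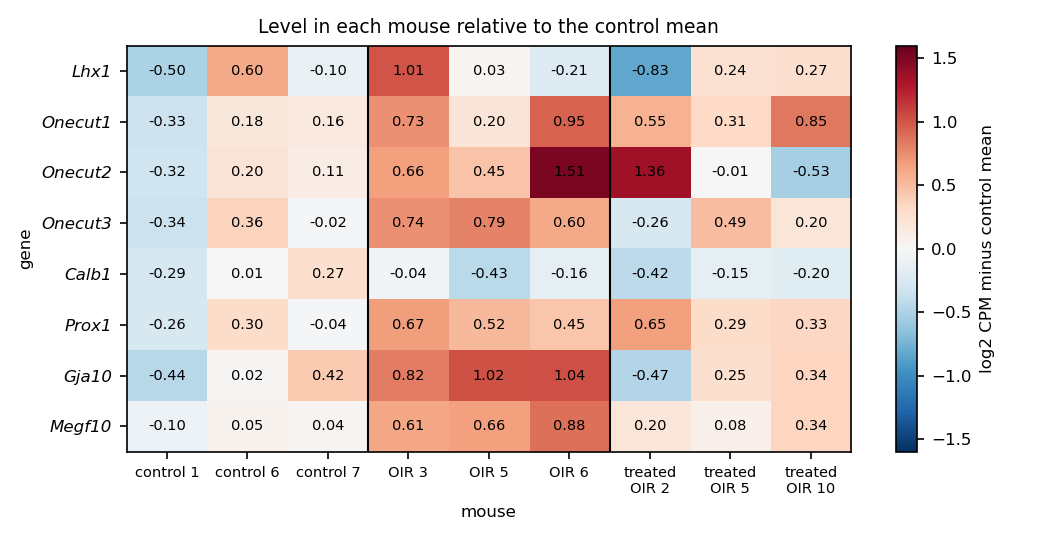
Log2 CPM (prior count of 2) of the 6 horizontal cell markers, Gja10 and Megf10 in each of the 9 mice, minus the mean of the 3 control mice, with numbers in the cells and vertical lines between groups. Onecut2 was 1.51 above the control mean in OIR mouse 6 and 1.36 above in treated OIR mouse 2, while Lhx1 was 0.83 below in treated OIR mouse 2 (shown as -0.83). Of 8 genes of horizontal cell function, only the 2 with log2 fold changes above 0 in OIR against control are shown, and 6 were below 0.

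Treated OIR mouse 2 stood apart in genes of the lens. The 10 lens genes summed to 113795 CPM in that mouse and to 9.71 to 867 CPM in the other 8 mice, and crystallin genes took 15.8% of its counts. The lens also makes Prox1. Treated OIR mouse 2 and OIR mouse 6, with the highest Onecut2, had the lowest summed levels of the 8 ganglion cell genes as well, at 28.0 and 66.6 CPM, against 201 to 1033 CPM in the other mice. No ganglion cell gene was at 0 in all mice of a group. The part of the lens transcripts and of the ganglion cell genes in the values of the markers was not tested.

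Counts of Prox1 may include those of its antisense neighbour, as the strand used in counting is not stated in the sources used here. Prox1os had 568 counts in treated OIR mouse 2, equal to 16.3% of the Prox1 counts in that mouse. In the other mice, Prox1os was equal to 1.89% to 6.01% of the Prox1 counts.

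Other genes of horizontal cell function were split in direction, with 2 of 8 log2 fold changes above 0 in OIR against control mice, where 53.5% of all genes were. Of the 8 genes, 1 passed the test upward in OIR mice and 0 passed it downward, while 5 (Nefl, Nefm, Nefh, Slc32a1 and Megf11) were lower in every OIR mouse than in every control mouse. Of all genes tested, 0.941% were called and 17.2% were lower in every OIR mouse. The median log2 fold change of the 8 genes was -1.11. Slc32a1, Nefh, Nefm and Megf11 had values of -1.46 (SE 0.32), -1.41 (SE 0.33), -1.74 (SE 0.74) and -0.81 (SE 0.31). Their adjusted p-values by edgeR were 0.0612, 0.0656, 0.192 and 0.157 in that order. Those of Slc32a1 and Nefh were below the 0.118 of Gja10, which was higher in OIR mice. Nefl, Nefm and Nefh, the neurofilament genes, and Slc32a1, the vesicular GABA transporter, are also made by ganglion or amacrine cells, and those lists were lower in OIR mice too, with medians of -2.16 over 8 ganglion cell genes and -1.38 over 10 amacrine cell genes. The part of those cells in the values was not tested.

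Megf10, a receptor through which horizontal cells space themselves in a mosaic, rose in OIR mice. It had 25.0, 27.8 and 27.6 CPM in control mice 1, 6 and 7, and 41.0, 42.4 and 49.2 CPM in OIR mice 3, 5 and 6. The groups lay well apart, with every OIR mouse above every control mouse, where 15.9% of all genes were. Which retinal cells the Megf10 RNA came from was not tested. The log2 fold change was 0.72 (SE 0.12), a 1.65-fold difference, with an adjusted p of 0.0407 by edgeR. Over 22 alternatives the value stayed between 0.64 and 0.79 and was called in 14, and the adjusted p ranged from 5.6e-05 to 0.163. Treated OIR mice 2, 5 and 10 had 30.7, 28.3 and 34.0 CPM, below every OIR mouse, where 5.39% of all genes were. Against OIR, the log2 fold change was -0.51 (SE 0.12), with an unadjusted p of 0.00165 and an adjusted p of 0.862 by edgeR.

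Gja10, the connexin of horizontal cell gap junctions, was named after its values were seen. It had 2.20, 3.07 and 4.06 CPM in control mice 1, 6 and 7, and 5.40, 6.25 and 6.30 CPM in OIR mice 3, 5 and 6. The treated OIR mice 2, 5 and 10 had 2.16, 3.62 and 3.85 CPM. OIR mice were thus above every mouse of both other groups. Of all genes, 15.9% were higher in every OIR mouse than in every control mouse. For 5.39%, every treated OIR mouse was below every OIR mouse. The log2 fold change of OIR against control was 0.95 (SE 0.31) with an adjusted p of 0.118 by edgeR and 0.0358 by DESeq2 on 9 mice, and that of treated OIR against OIR was -0.89 (SE 0.31) with an adjusted p of 0.990 by edgeR, and -0.65 without treated OIR mouse 2. Gja10 was called in 5 of 22 alternatives in OIR against control, over which its adjusted p ranged from 0.0159 to 0.285.

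Per length, Nefl and Sept4 were the highest genes of horizontal cell function in control mice, at 162 and 71.5 RPKM. Nefl had 449, 522 and 668 CPM in control mice 1, 6 and 7, and 222, 132 and 31.4 CPM in OIR mice 3, 5 and 6. In treated OIR mouse 2 it had 12.4 CPM, against 372 and 374 CPM in mice 5 and 10. Its lowest levels were thus in OIR mouse 6 and treated OIR mouse 2, and its log2 fold change in OIR against control was -2.09 (SE 1.01), with an adjusted p of 0.246. The adjusted p of Nefl was 0.0353 by DESeq2 on the groups compared, 0.0324 by edgeR without treated OIR mouse 2 and 0.0137 by DESeq2 without that mouse, and it was below 0.05 in these 3 of 22 alternatives. Sept4, a septin of the cytoskeleton, overlapped between OIR and control mice, with a log2 fold change of -0.29 (SE 0.26) and an adjusted p of 0.541.

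Of 7 genes of horizontal cell development, 5 passed the filter, and 0 of 5 were called in any of the 3 comparisons by edgeR, where 0.941% of all genes were called in OIR against control, 0.0228% in treated OIR against control and 0% in treated OIR against OIR. The median log2 fold change in OIR against control was -0.65, and 3 of the 5, Tfap2a, Tfap2b and Pax6, were lower in every OIR mouse than in every control mouse, where 17.2% of all genes were. Their log2 fold changes were -1.77 (SE 0.37), -0.65 (SE 0.45) and -0.69 (SE 0.19), with adjusted p-values of 0.0599, 0.414 and 0.0923 by edgeR. These factors are found in amacrine cells as well. Ptf1a and Foxn4, which act in the progenitors that give rise to horizontal cells, had at most 11 counts in any mouse and 0 counts in all control mice.

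**Figure D4:**
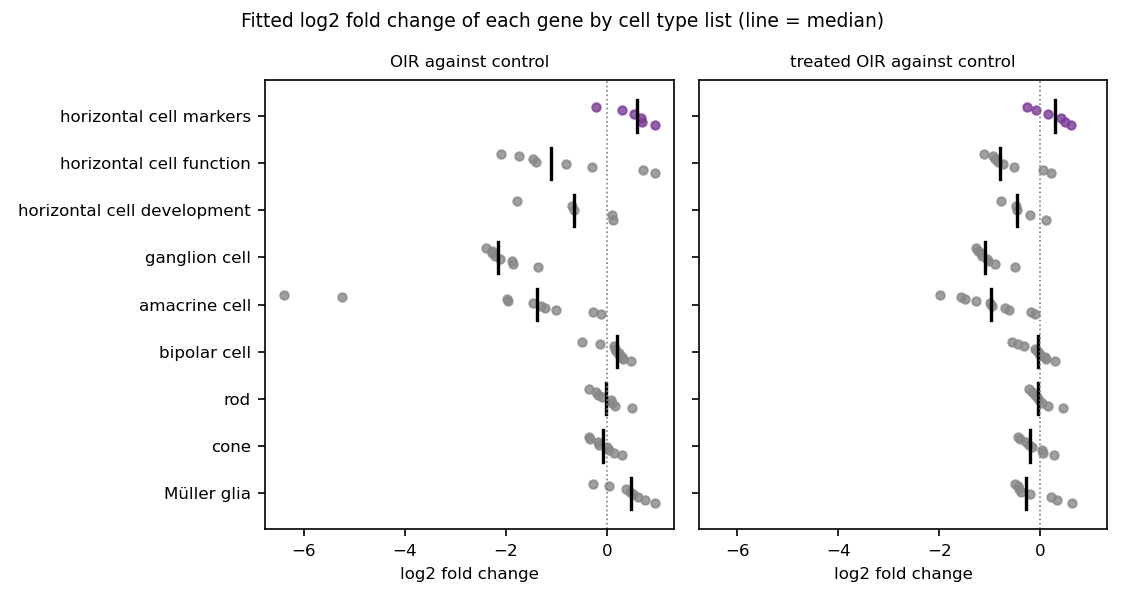
Log2 fold change from edgeR on 9 mice of each gene tested, by cell type list, for OIR against control (left) and treated OIR against control (right, with the same control mice), with a line at each list's median and the horizontal cell markers in purple. In OIR against control, the medians were 0.60 for the horizontal cell markers, -1.11 for horizontal cell function and -0.65 for horizontal cell development. They were -2.16 for ganglion cell genes, -1.38 for amacrine cell genes, 0.20 for bipolar cell genes and 0.48 for Müller glia genes. Rod and cone genes had medians of -0.01 and -0.07.

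Among other retinal cell types in OIR against control, the median log2 fold change was 0.20 over 10 bipolar cell genes, -0.01 over 8 rod genes, -0.07 over 8 cone genes and 0.48 over 8 Müller glia genes. Since Prox1 is also made by bipolar cells and Müller glia, their part in its level was not tested. Over the 9 mice, the genes whose log2 CPM most resembled the markers by Pearson's r were Kmt2e (r = 0.960) and Golga4 (r = 0.954) for Prox1, Cs (r = 0.972) and Sppl3 (r = 0.966) for Calb1, and Thsd7b (r = 0.938) and Tmem132d (r = 0.931) for Lhx1. For the Onecut genes they were Dennd4a (r = 0.960) and Clcn3 (r = 0.954) for Onecut1, Sf3b3 (r = 0.974) and Spint2 (r = 0.973) for Onecut2, and Zfp27 (r = 0.954) and Lpcat1 (r = 0.944) for Onecut3. Each is the highest of 12911 genes compared over mice that share groups and libraries, so these values are descriptions.

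HIFs bind DNA at the core letters ACGTG or GCGTG, and since the inhibitor acts on HIFs, the 250 bases before the start site are shown for the 3 markers with a promoter in the RefSeq table used (GRCm38.p6). Onecut2, Onecut3 and Calb1 had no entry. Capitals mark HIF core letters on either strand, and the sequences run 5′ to 3′ on the strand of the gene, at chr9:74861671-74861920 (plus) for Onecut1, chr11:84525535-84525784 (minus) for Lhx1 and chr1:190170828-190171077 (minus, the more upstream of 2 starts) for Prox1.
Onecut1: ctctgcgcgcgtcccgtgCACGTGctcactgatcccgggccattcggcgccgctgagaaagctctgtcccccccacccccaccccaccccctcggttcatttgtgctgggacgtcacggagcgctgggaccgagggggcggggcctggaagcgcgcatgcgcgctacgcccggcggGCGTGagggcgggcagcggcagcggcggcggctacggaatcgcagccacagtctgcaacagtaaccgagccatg
Lhx1: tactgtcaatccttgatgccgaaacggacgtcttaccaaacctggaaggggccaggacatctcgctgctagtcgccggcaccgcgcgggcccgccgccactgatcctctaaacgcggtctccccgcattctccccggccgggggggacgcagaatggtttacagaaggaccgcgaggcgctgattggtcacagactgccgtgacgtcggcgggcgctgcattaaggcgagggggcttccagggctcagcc
Prox1: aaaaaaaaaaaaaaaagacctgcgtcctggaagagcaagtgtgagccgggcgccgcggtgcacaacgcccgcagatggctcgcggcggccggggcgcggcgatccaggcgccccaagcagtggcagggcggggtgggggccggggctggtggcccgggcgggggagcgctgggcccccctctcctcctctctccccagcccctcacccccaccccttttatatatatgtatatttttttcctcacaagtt
The Onecut1 sequence holds 3 matches, of which 2 are the opposite strands of the palindrome CACGTG and 1 is GCGTG, whereas those of Lhx1 and Prox1 hold 0. Of 32851 promoters of the same length, 38.6% hold at least 1 HIF core. The core letters of Onecut factors, searched as ATCGAT or ATTGAT on both strands, were in 0 of these 3 sequences and in 7.40% of all promoters. A match is a description of letters in this window, and whether HIFs bind there was not tested. For Prox1, matches are given only for the more upstream start.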

How the data were processed

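The authors deposited 1 table of whole-number counts per gene, not normalised, with a gene length for each gene. The submitters' processing notes name CASAVA and HISAT without versions, and the annotation, counting strand and filters are not given in the sources used here. Each mouse was 1 replicate, grouped by its labels, and the columns not mapped to a mouse numbered 0.

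Counts were fitted with edgeR 4.0.16 in R 4.3.3 (quasi-likelihood test, TMM scaling, default filter by group, all 9 mice, 1 mean per group), with Benjamini-Hochberg adjustment over 17540 genes and a call at an adjusted p below 0.05. CPM used TMM-scaled library sizes, log2 CPM a prior count of 2, and RPKM the deposited gene length. Depth was lowest in treated OIR mouse 5 (16028731 counts) and highest in control mouse 1 (27213184 counts). The fits were run on simulated counts to check the direction and size of fitted changes. The simulation held no mouse with lens transcripts like treated OIR mouse 2.

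The members, gene lists and tests were chosen with earlier results of these data known. Genes named are the 6 markers, the genes of horizontal cell function and development that were called or were the 2 highest per length in control mice, and for each marker the 2 genes of highest Pearson's r among those with a mean log2 CPM of at least 1 and no predicted-gene name. The other genes named from these lists were chosen after their values were seen.

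The 20 alternatives were DESeq2 1.42.0 (all 9 mice, or only the groups compared), edgeR restricted to the groups compared, upper-quartile and relative log expression scaling, total counts alone, no filter, 10 counts in every mouse, limma 3.58.1 (voom with quality weights), a robust dispersion, a lens score as covariate, and leaving out each of 9 mice. Another 2 were added after seeing the data, a fit without lens and crystallin genes and DESeq2 without treated OIR mouse 2.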

Additional observations from a re-analysis of the deposited data

How the results depend on the processing

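Over 22 alternatives and 6 genes in 3 comparisons, 370 of 396 marker values kept their direction and their side of the threshold, 8 became called and 18 changed sign. The number of markers called in OIR against control was 0 of 6, where 0.941% of all genes were called. It became 1 by DESeq2 on 9 mice (Prox1), where 11.6% of all genes were called. It was 2 by DESeq2 on the 2 groups (Prox1 and Onecut2), where 15.5% were. By DESeq2 without treated OIR mouse 2 it was 3 (Prox1, Onecut2 and Onecut3), where 18.1% were. It ranged from 0 to 1 when mice were left out in turn, with 1 (Prox1) without treated OIR mouse 2, where 12.5% of all genes were called. In treated OIR against OIR it was 0 and became 1 (Onecut2) by DESeq2 without treated OIR mouse 2, where 3.85% of all genes were called. In treated OIR against control it was 0 in all 22.

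The number of all genes called in OIR against control was 165, of which 46.1% were higher. It was 1805 by DESeq2 on 9 mice, 2568 by DESeq2 on the 2 groups, 1771 by edgeR on the 2 groups, 37 with total counts alone (75.7% higher), 532 with no filter, 376 with 10 counts in every mouse, 2305 by limma-voom, 734 with the lens score and 2999 by DESeq2 without treated OIR mouse 2. It ranged from 0 to 2272 when mice were left out in turn, with 2272 without treated OIR mouse 2, 196 without treated OIR mouse 10 and 0 without any other mouse. In treated OIR against control it was 4, and 656, 273 and 0 in the first 3 of these fits, 0 with relative log expression scaling, 18 with no filter, 926 by limma-voom, 0 with the lens score, 0 without lens genes, 350 by DESeq2 without treated OIR mouse 2, and 0 to 6 with mice left out in turn. In treated OIR against OIR it was 0, and 35 and 77 by DESeq2 on 9 mice and on the 2 groups, 1 with no filter, 1 by limma-voom, 662 by DESeq2 without treated OIR mouse 2, and 0 with each mouse left out. Upper-quartile scaling called 55.7% of genes higher in OIR against control, and relative log expression scaling 36.3%. The cause of these changes was not tested.

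Log2 fold changes in treated OIR against control that changed sign were those of Onecut2 (-0.17 by limma-voom, -0.048 with the lens score, -0.27 by DESeq2 without treated OIR mouse 2, and -0.25 to 0.82 with mice left out in turn), Lhx1 (0.0012 with the lens score, 0.18 by DESeq2 without mouse 2, and -0.32 to 0.27), Onecut3 (-0.039 to 0.36 with mice left out) and Gja10 (-0.15 to 0.29). In treated OIR against OIR they were those of Calb1 (0.033 by limma-voom, 0.026 by DESeq2 without mouse 2, and -0.15 to 0.053), Sept4 (0.048 by DESeq2 without mouse 2, and -0.44 to 0.074), Lhx1 (-0.63 to 0.066) and Onecut1 (-0.26 to 0.11), and in OIR against control that of Lhx1 (-0.15 to 0.68). The call of Megf10 was lost with total counts alone and without any mouse other than treated OIR mice 2 and 10. No paired analysis was done, because each mouse belonged to a single group and no label pairs mice across groups. Nothing in the labels ties mice to litters or batches, and the precision is set by 3 mice per group. Among the markers, counting error was largest for Onecut1. In OIR mice it was also near the measured coefficient of variation for Onecut3 (6.96% against 6.72%) and Gja10 (8.94% against 8.43%).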
